A study of Mus musculus and Bos taurus with 26 samples.

Results

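Genes for voltage-gated sodium and calcium channels, for potassium channels and for their auxiliary subunits were followed through 26 RNA libraries of early mouse and bovine embryos. Members were chosen by symbol alone, as every gene whose name begins with Kcn, Scn, Cacna, Cacnb or Cacng in the numbered series of these families, with no filter on level. There were 136 such genes among the 27988 genes of the mouse values and 131 among the 21577 genes of the bovine values. The choice used no measured value, although the family was picked with earlier results of these data known.

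The mouse groups were compared in pairs, each with 2 libraries per group. Zygotes received mRNA for mutant Hdac1 or, in their controls, for wild-type (WT) Hdac1, and were taken as late 2-cell embryos at 36 h or as early 2-cell embryos at 24 h. Mutant Hdac2 mRNA was set against WT Hdac2 mRNA at 36 h. Embryos cultured in KSOM medium with 50 nM FK228 from the zygote stage were set against DMSO at 36 h. A further pair had mutant Hdac1 mRNA injected at the zygote stage, followed at the early 2-cell stage by an injection of both blastomeres with Kdm5b mRNA or, in its control, water. Embryos injected with water as zygotes stood apart as an injection control. Bovine 8/16-cell embryos at 72 h had been cultured in BO-IVC medium with 50 nM FK228 or with DMSO from the zygote stage. Every mouse group but FK228 and DMSO had been injected, and the labels do not give the mutations. Hdac1 and Hdac2 encode histone deacetylases, FK228 inhibits enzymes of their class, and Kdm5b encodes a demethylase of histone H3 lysine 4. RNA was taken from whole embryos whose own Hdac1 and Hdac2 genes were intact as far as the labels say.

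Potassium channels let potassium leave or enter the cell and set the resting potential, sodium channels carry the upstroke of the action potential, and calcium channels turn a change in voltage into calcium entry. Inward rectifiers and tandem-pore channels are open near rest, voltage-gated channels open on depolarisation, and auxiliary subunits change the trafficking and gating of the pore. Most of these genes are known from neurons, muscle and glia, and many carry binding sites for REST, a repressor that brings histone deacetylases to neuronal genes in cells outside the nervous system. Mouse eggs and early embryos are known to use a few of them, among these the T-type calcium channel encoded by Cacna1h.

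Values are in FPKM as the authors deposited them, that is fragments scaled to transcript length and to the size of the library, so absolute depth is unknown and the total RNA of an embryo is unseen. The estimated relative depth of the libraries spanned 0.662 to 1.31 in mouse and 0.913 to 1.07 in cattle. The number of genes at 1 FPKM or more ran between 10704 and 14554 over the mouse libraries and between 11598 and 12141 over the bovine ones. Across the channel genes, log2 values of the 2 libraries of a group correlated with an r of 0.902 to 0.975 in mouse. In cattle the r was 0.985 with FK228 and 0.968 with DMSO. The injected genes were high where the labels place them. Hdac1 stood at 4952 and 4612 FPKM with mutant and 2707 and 2960 FPKM with WT Hdac1 mRNA at 36 h, against 92.2 and 89.3 FPKM in water embryos. Hdac2 stood at 2443 and 2292 FPKM with mutant and 1775 and 1462 FPKM with WT Hdac2 mRNA. Kdm5b stood at 593.5 and 638.1 FPKM with Kdm5b mRNA and 61.3 and 74.0 FPKM with water.

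Control embryos at the late 2-cell stage expressed few channel genes, and more of them were detected with either mutant mRNA and with FK228. With mutant Hdac1 mRNA 53 and 58 of the 136 genes reached 1 FPKM, against 22 and 22 with WT Hdac1 mRNA. With mutant Hdac2 mRNA 60 and 66 genes did so, against 30 and 33 with WT Hdac2 mRNA. FK228 gave the highest numbers, 69 and 73 genes, against 28 and 34 in DMSO. In each of these pairs the libraries did not overlap. The number of all genes at 1 FPKM or more rose as well, again without overlap. It was 13474 and 14341 with mutant and 11284 and 11628 with WT Hdac1 mRNA. With mutant Hdac2 mRNA it was 14087 and 14554, against 11667 and 11739 with WT Hdac2 mRNA. FK228 gave 14285 and 14331 genes, against 11988 and 12105 in DMSO. Cattle showed a smaller step, with 46 and 44 of 131 channel genes in FK228 and 33 and 38 in DMSO. Over all bovine genes the libraries overlapped, at 11952 and 12141 in FK228 and 11598 and 12018 in DMSO. The summed level of the channel genes moved in the same direction. It was 318.5 and 377.1 FPKM with mutant and 169.7 and 158.3 FPKM with WT Hdac1 mRNA, 525.3 and 588.4 FPKM with mutant and 229.7 and 266.8 FPKM with WT Hdac2 mRNA. It was 587.9 and 643.5 FPKM in FK228 and 229.6 and 259 FPKM in DMSO. In cattle the sum was 476.2 and 478.8 FPKM in FK228, against 250.9 and 270.3 FPKM in DMSO. Because a library is a bulk sample, fewer cells of a type and less RNA per cell cannot be told apart.

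**Figure D1:**
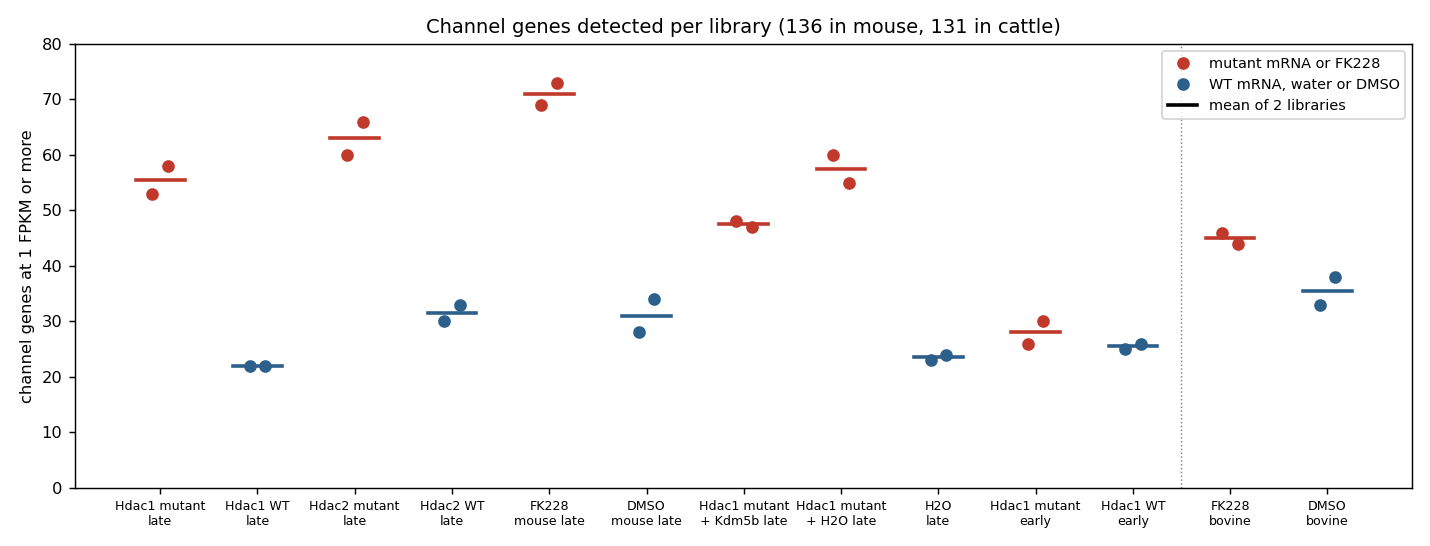
Each point is a library and its height is the number of channel genes at 1 FPKM or more, of 136 in mouse and 131 in cattle; bars are means of 2 libraries. Late 2-cell libraries with mutant mRNA or FK228 sit between 47 and 73 genes and their WT, water and DMSO counterparts between 22 and 34, whereas the early 2-cell groups sit between 25 and 30.

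Tests used limma on log2(FPKM + 1), which understates the change of low genes, and a call was an adjusted p under 0.05 over all genes tested. Whether the 2 libraries of a group come from separate embryo cultures is not in the labels, so the p-values measure the spread between libraries, which may be only technical. Of the 136 mouse genes, 78 reached 1 FPKM in at least 2 libraries and were tested. Since many of these passed only through the group in which they were high, the counts below are a description and are not read as support. With mutant Hdac1 mRNA 49 of the 78 rose and 1 fell, beside 30.5% of all tested genes called higher and 21.6% called lower. With mutant Hdac2 mRNA 52 rose and 3 fell, beside 30.8% and 22.2% of all tested genes. With FK228 59 rose and 3 fell, beside 31% and 26.3%. In cattle 46 of 131 genes were tested, of which 20 rose and 3 fell, beside 22.2% and 27.4%.

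The median log2 fold change of the tested channel genes was 0.88, 1.03 and 1.09 for mutant Hdac1, mutant Hdac2 and FK228 in mouse and 0.56 for FK228 in cattle. Over all tested genes it was 0.17, 0.14 and 0.15 in mouse and 0.06 in cattle. With no filter on level the medians of the channel genes were lower, at 0.37, 0.48 and 0.63 in mouse and 0.11 in cattle, beside 0.02, 0.04 and 0.03 over all mouse genes and 0.04 over all bovine genes with a value. Over all 136 genes, again unfiltered, 59 rose and 1 fell with mutant Hdac1 (20.2% and 13% of all genes with a value), 68 rose and 3 fell with mutant Hdac2 (21.2% and 13.2%), and 76 rose and 4 fell with FK228 (22% and 15.9%). Without the filter 20 of the 131 bovine genes rose and 6 fell (11.4% and 14.1%). In the last case the share of channel genes called higher was near that of all genes.

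How many of the calls were upward depended on the scaling. Quantile normalization moved the median of all genes to -0.06, -0.05 and -0.04 in the Hdac1, Hdac2 and FK228 mouse comparisons. It gave 28 channel genes higher and 6 lower with mutant Hdac1 (82.4% of calls upward, against 98% without it), 36 and 10 with mutant Hdac2 (78.3% against 94.5%), and 41 and 5 with FK228 (89.1% against 95.2%). Of all tested genes it called 24.2%, 24.3% and 27.5% higher and 26.2%, 26.1% and 27.9% lower in these 3 comparisons. Under median-ratio scaling the counts were 49 and 1, 52 and 3, and 61 and 2. Beside them stand 30%, 30.3% and 34.2% of all tested genes called higher and 22.5%, 22.1% and 23.9% called lower. The median of the channel genes stayed above that of all genes under all 3 scalings in these comparisons.

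Of the 78 tested mouse genes, 42 (53.8%) were called higher in all 3 mouse comparisons, which have separate controls; of all 17336 tested genes 3666 (21.1%) were. Only Kcnk6 was called lower in all 3, and 11 genes were called in none. Cacnb3 alone was higher in some and lower in another. Across the 78 genes, which share libraries and are not independent replicates, the log2 fold changes of mutant Hdac1 and mutant Hdac2 correlated with an r of 0.891, those of mutant Hdac1 and FK228 with 0.766, and those of mutant Hdac2 and FK228 with 0.82.

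**Figure D2:**
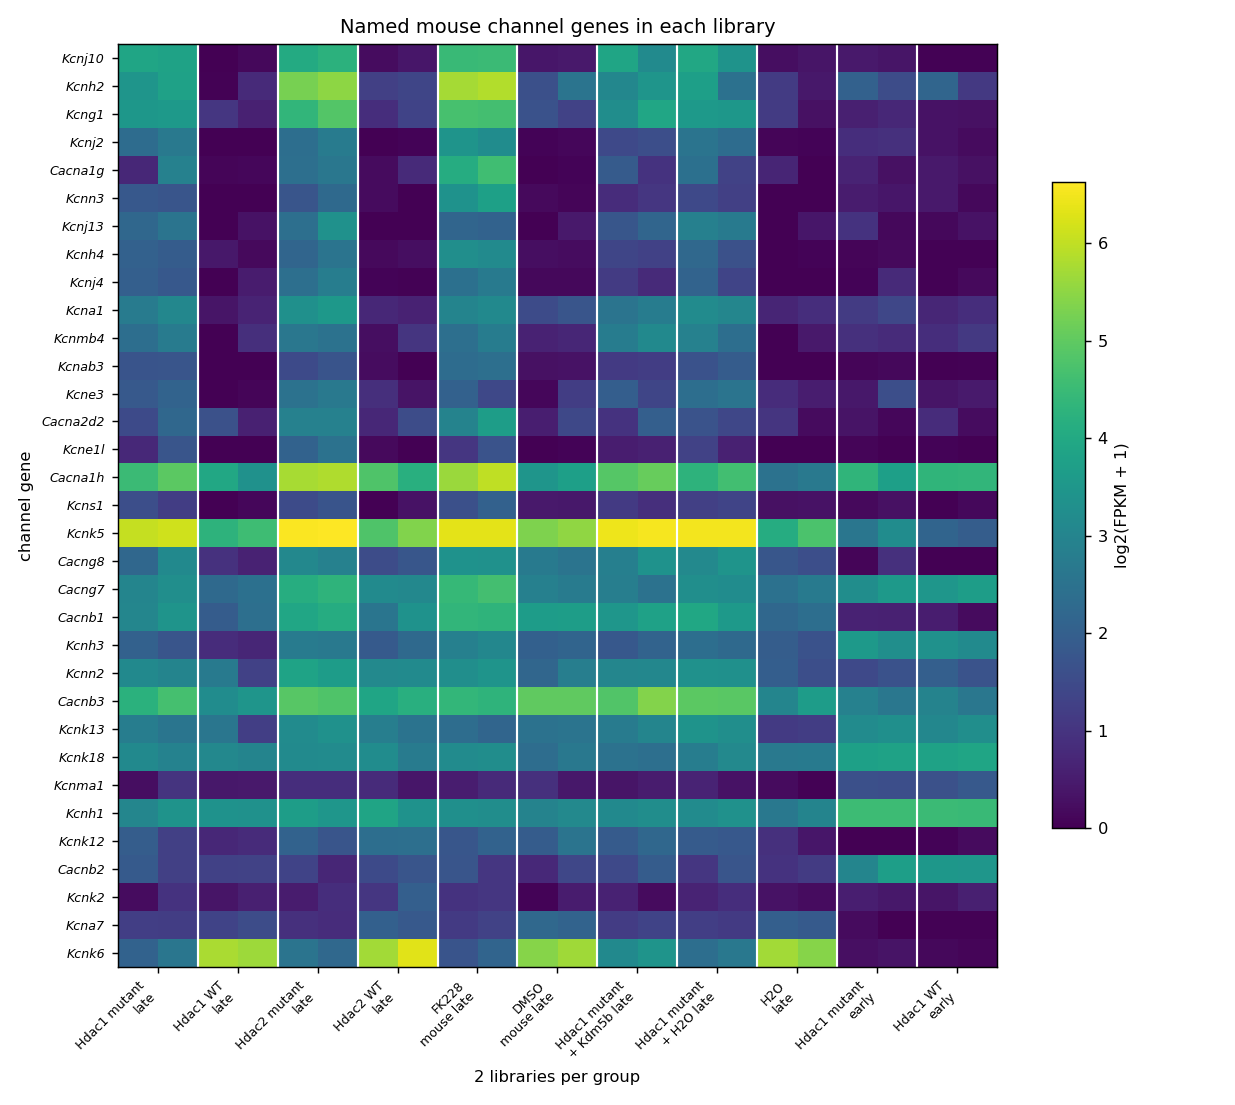
Rows are channel genes chosen by the naming rule in mouse, columns are the 22 mouse libraries with 2 per group, and colour is log2(FPKM + 1). In the late 2-cell libraries Kcnj10, Kcng1 and Kcnj2 are bright with mutant mRNA and FK228 and dark in their controls, at the early stage they are dark in both groups, and Kcnk6 in the bottom row shows the opposite late pattern.

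Genes that were silent in controls and switched on were counted without any test. A gene was silent under 0.5 FPKM in both control libraries and switched on at 1 FPKM or more in both libraries of the mutant or FK228 group. With mutant Hdac1 mRNA 14 of 93 silent channel genes (15.1%) switched on, beside 9.6% of all silent genes. With mutant Hdac2 mRNA 16 of 88 (18.2%) did, beside 10.5%. With FK228 26 of 90 (28.9%) did, beside 10.7%. In cattle 5 of 68 (7.35%) did, beside 3.7%. The mutant counts grew by over 1.5 times without 1 mutant library, to 22 of 93 (23.7%) with mutant Hdac1 and 26 of 88 (29.5%) with mutant Hdac2, each without replicate 1 and each beside 15.2% of all silent genes. With mutant Hdac1 mRNA at the early 2-cell stage 0 of 95 switched on, beside 0.287% of all silent genes, and without mutant replicate 1 it was 3 (3.16%), beside 2.45%. The order of the 3 mouse perturbations rested on the thresholds. With silence set under 1 FPKM and switching on at 2 FPKM, the shares were 14.7%, 14.9% and 14% for mutant Hdac1, mutant Hdac2 and FK228, beside 7.55%, 8.42% and 8.6% of all silent genes. With silence set under 0.1 FPKM and switching on at 0.5 FPKM, they were 27.7%, 22.6% and 33.9%, beside 8.94%, 9% and 9.18%. Whether the channel genes and the rest differed was not tested, nor was the difference between perturbations.

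**Figure D3:**
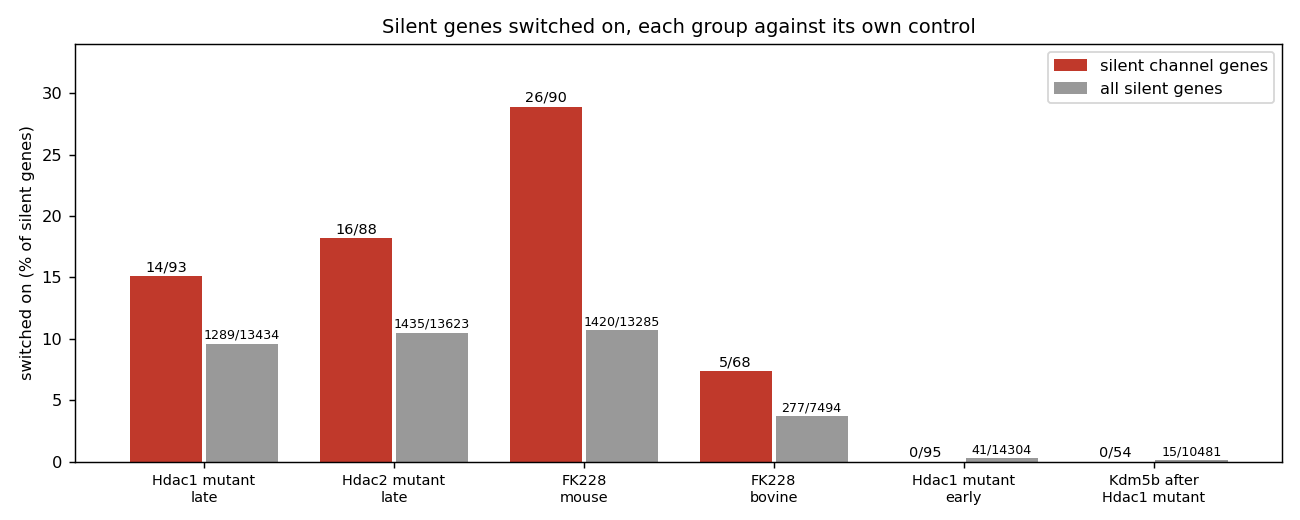
Bars give the percent of silent genes that switched on in each group against its own control, red for channel genes and grey for all genes, with the counts above. The share of channel genes runs from 15.1% to 28.9% in the 3 late 2-cell mouse comparisons and is 0 at the early 2-cell stage and after Kdm5b.

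Of the 81 channel genes silent in all 3 mouse controls, 8 (9.88%) switched on in all 3 mouse perturbations, beside 4.43% of the 11456 genes silent in all 3. They were the inward rectifiers Kcnj2, Kcnj4, Kcnj10 and Kcnj13, the voltage-gated subunits Kcnh4 and Kcns1, the calcium-activated channel Kcnn3 and the auxiliary subunit Kcnab3. In any of the 3 perturbations 23 of the 81 switched on, beside 1265 of the 11456 genes.

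The start regions of 5 of these 8 genes are shown because these genes moved together, from silence in every control to expression in every mouse perturbation. The sequences are those of RefSeq on GRCm38.p6, 250 bases before to 50 after the gene's start in RefSeq, read 5′ to 3′ on the gene's strand, with every CG in capitals. For Kcnh4 this start differs from the GENCODE start at 100759942 and lies within the GENCODE gene. Kcnj10 lies at chr1:172340960-172341259 on the plus strand, Kcnj2 at chr11:111065914-111066213 on the plus strand, Kcnj4 at chr15:79505192-79505491 on the minus strand, Kcnj13 at chr1:87394680-87394979 on the minus strand and Kcnh4 at chr11:100759729-100760028 on the minus strand.
Kcnj10: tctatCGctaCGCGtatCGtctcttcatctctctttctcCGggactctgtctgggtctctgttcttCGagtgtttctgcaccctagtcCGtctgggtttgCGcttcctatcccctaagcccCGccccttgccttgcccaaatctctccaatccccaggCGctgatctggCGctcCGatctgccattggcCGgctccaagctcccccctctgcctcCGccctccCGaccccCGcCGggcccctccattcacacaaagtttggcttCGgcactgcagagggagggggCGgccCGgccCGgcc
Kcnj2: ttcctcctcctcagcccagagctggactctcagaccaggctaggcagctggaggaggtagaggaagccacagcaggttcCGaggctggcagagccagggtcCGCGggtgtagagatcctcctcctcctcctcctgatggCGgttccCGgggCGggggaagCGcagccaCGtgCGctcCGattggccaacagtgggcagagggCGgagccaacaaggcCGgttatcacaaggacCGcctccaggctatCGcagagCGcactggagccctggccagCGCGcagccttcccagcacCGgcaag
Kcnj4: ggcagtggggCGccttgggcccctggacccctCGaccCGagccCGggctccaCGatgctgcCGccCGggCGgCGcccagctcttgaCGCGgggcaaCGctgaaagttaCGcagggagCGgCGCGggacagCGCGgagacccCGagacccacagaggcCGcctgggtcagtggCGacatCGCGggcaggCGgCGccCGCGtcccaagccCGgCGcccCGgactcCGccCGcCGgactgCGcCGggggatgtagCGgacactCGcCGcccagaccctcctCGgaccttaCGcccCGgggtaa
Kcnj13: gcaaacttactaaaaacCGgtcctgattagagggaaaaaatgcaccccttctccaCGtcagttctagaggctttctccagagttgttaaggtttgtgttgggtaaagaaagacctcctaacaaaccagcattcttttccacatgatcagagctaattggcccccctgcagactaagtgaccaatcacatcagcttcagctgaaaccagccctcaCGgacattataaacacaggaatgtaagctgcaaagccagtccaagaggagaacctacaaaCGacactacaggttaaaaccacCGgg
Kcnh4: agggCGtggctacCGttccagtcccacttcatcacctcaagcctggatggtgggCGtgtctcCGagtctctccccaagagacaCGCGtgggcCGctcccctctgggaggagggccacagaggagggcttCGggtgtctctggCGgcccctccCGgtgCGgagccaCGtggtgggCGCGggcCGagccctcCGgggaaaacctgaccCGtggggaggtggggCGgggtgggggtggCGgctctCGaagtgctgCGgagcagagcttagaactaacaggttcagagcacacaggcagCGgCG
These windows hold 21 CpG sites in Kcnj10, 18 in Kcnj2, 41 in Kcnj4, 5 in Kcnj13 and 23 in Kcnh4. Over the 7 of the 8 genes with a promoter entry the median was 21 CpG sites and 64% GC, against 7 CpG sites and 52.7% GC over 32841 promoters of 27018 genes. The motif GGGCGG, searched on both strands, was in 5 of the 7 (71.4%) and in 35.7% of all promoters. TATAAA, searched on both strands, was in 1 of the 7 (14.3%), that of Kcnj13, and in 13.6% of all promoters. A match is a description of the letters and not a site. The 7 were picked by their change, and no test was made. Over the whole family only 99 of 136 genes (72.8%) had an entry, so a comparison of its promoters with others is void; the 135 promoters of these genes had a median of 9 CpG sites and 58.3% GC, with GGGCGG in 45.2% and TATAAA in 5.19%.

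Inward rectifiers hold the membrane near the potassium potential. All 15 members were silent in the controls of each mouse comparison, so that none of the 6 tested passed the filter on level through these controls. Of the 6 tested, 5, 6 and 6 rose with mutant Hdac1, mutant Hdac2 and FK228. Beside this and every mouse class count below stand 30.5%, 30.8% and 31% of all tested genes called higher. The shares called lower were 21.6%, 22.2% and 26.3%. Whether a class differed from all tested genes was not tested. Kcnj10, which encodes the main potassium-buffering channel of glia, lies at chr1:172341210-172374085 on GRCm38. It stood at 13.7 and 13.0 FPKM with mutant and 0.0177 and 0.112 FPKM with WT Hdac1 mRNA, at 15.5 and 18.0 FPKM with mutant and 0.162 and 0.321 FPKM with WT Hdac2 mRNA, and at 21.4 and 22.02 FPKM in FK228 and 0.330 and 0.377 FPKM in DMSO. Every mutant or FK228 library was thus above every control library. The log2 fold changes were 3.75 ± 0.23 (SE; limma adjusted p = 8.81e-09) with mutant Hdac1, 3.84 (5.9e-09) with mutant Hdac2 and 4.07 (2.12e-09) with FK228. Kcnj2, the strong rectifier of heart and skeletal muscle, lies at chr11:111066164-111076821. It stood at 4.09 and 5.38 FPKM with mutant and 0.0176 and 0.0139 FPKM with WT Hdac1 mRNA, and at 9.66 and 8.39 FPKM in FK228 and 0.0486 and 0.0845 FPKM in DMSO. With mutant Hdac2 mRNA it stood at 4.29 and 5.73 FPKM, and with WT Hdac2 mRNA it was listed at 0 in 1 library and at 0.0368 FPKM in the other. The groups did not overlap, and the log2 fold changes were 2.49, 2.55 and 3.23 (limma adjusted p = 4.46e-08, 2.7e-08 and 2.16e-09).

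The other inward rectifiers followed at lower levels. Kcnj4, a brain and heart rectifier of the same subfamily as Kcnj2, stood at 3.02 and 2.55 FPKM with mutant Hdac1 mRNA, 4.34 and 5.97 FPKM with mutant Hdac2 mRNA and 4.41 and 5.51 FPKM in FK228. Its controls lay between 0, in 1 library with WT Hdac1 mRNA, and 0.411 FPKM. Kcnj13, known from the retinal pigment epithelium, stood at 3.60 and 4.82 FPKM with mutant Hdac1 mRNA, 4.32 and 9.12 FPKM with mutant Hdac2 mRNA and 3.44 and 3.24 FPKM in FK228. It was listed at 0 in both libraries with WT Hdac2 mRNA and in 1 library of each other control, and never passed 0.362 FPKM in a control. Both genes rose in all 3 comparisons (limma adjusted p = 1.33e-04, 1.77e-06 and 2.36e-06 for Kcnj4 with mutant Hdac1, mutant Hdac2 and FK228, and 2.6e-05, 1.61e-06 and 8.91e-05 for Kcnj13). Exons of Kcnj13 share sequence with Gigyf2 on the other strand, and since no strand marking is described, reads of such a pair may not be told apart. Kcnj9, a G protein-gated rectifier of neurons, rose in all 3 but to no more than 1.36 FPKM.

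Pore subunits of voltage-gated potassium channels were the largest class, with 39 members and 24 tested. Of these 17, 18 and 19 rose with mutant Hdac1, mutant Hdac2 and FK228, and 0, 1 and 1 fell. Kcnh2, the channel of the rapid repolarising current of the heart (chr5:24319589-24351604), stood at 9.95 and 12.7 FPKM with mutant and 0.0231 and 0.715 FPKM with WT Hdac1 mRNA. It stood at 37.2 and 44.2 FPKM with mutant and 1.39 and 1.62 FPKM with WT Hdac2 mRNA, and at 51.9 and 57.0 FPKM in FK228 and 2.07 and 4.85 FPKM in DMSO. The groups did not overlap, and Kcnh2 reached higher levels with mutant Hdac2 mRNA and FK228 than with mutant Hdac1 mRNA, as its controls did. The log2 fold changes were 3.21 ± 0.44, 4.05 ± 0.44 and 3.71 ± 0.44 (SE; limma adjusted p = 1.62e-05, 1.39e-06 and 2.77e-06). Kcng1, a subunit that forms no channel alone and modifies others, lies at chr2:168260117-168281736. It stood at 10.4 and 11.1 FPKM with mutant and 1.07 and 0.526 FPKM with WT Hdac1 mRNA, at 19.6 and 27.8 FPKM with mutant and 0.815 and 1.53 FPKM with WT Hdac2 mRNA, and at 24.9 and 23.8 FPKM in FK228 and 2.15 and 1.49 FPKM in DMSO. It rose in all 3, with log2 fold changes of 2.72, 3.51 and 3.18 (limma adjusted p = 1.55e-06, 1.06e-07 and 1.97e-07).

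Kcna1, which shapes axonal firing, stood at 5.81 and 7.30 FPKM with mutant and 0.303 and 0.584 FPKM with WT Hdac1 mRNA, and at 9.06 and 10.6 FPKM with mutant and 0.680 and 0.541 FPKM with WT Hdac2 mRNA. Its log2 fold changes were 2.39 and 2.75 (limma adjusted p = 9.81e-08 and 2.04e-08). In FK228 it stood at 6.98 and 7.79 FPKM, against 1.88 and 2.36 FPKM in DMSO, a log2 fold change of 1.43. Kcnh4, a brain channel at chr11:100740376-100759942, stood at 3.13 and 2.79 FPKM with mutant Hdac1 mRNA, 3.46 and 4.90 FPKM with mutant Hdac2 mRNA and 8.64 and 8.02 FPKM in FK228, against 0.124 to 0.347 FPKM in the 6 control libraries. Kcns1, another modifier subunit, reached 1.31 to 3.19 FPKM in the mutant and FK228 libraries and no more than 0.358 FPKM in their controls, with 0 in 1 library each of WT Hdac1 and WT Hdac2 mRNA.

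Not every voltage-gated potassium gene followed. Kcnh1, already present in controls, stood at 7.28 and 9.49 FPKM with mutant and 9.41 and 9.12 FPKM with WT Hdac1 mRNA, and was called in none of the 3 comparisons (log2 fold changes -0.14, -0.03 and 0.23). Kcnq1, known from heart and epithelia, stood between 2.60 and 5.97 FPKM in the 12 libraries of these comparisons and was called in none. Kcna7, a potassium channel of muscle at chr7:45405653-45409763, was lower with mutant Hdac2 mRNA, at 0.875 and 0.798 FPKM against 3.07 and 2.60 FPKM with WT Hdac2 mRNA. It was also lower in FK228, at 1.18 and 1.48 FPKM against 3.71 and 3.28 FPKM in DMSO. The log2 fold changes were -1.06 and -0.95 (limma adjusted p = 7.89e-05 and 1.94e-04), and with mutant Hdac1 mRNA Kcna7 was not called at 1.33 and 1.32 FPKM against 1.53 and 1.93 FPKM with WT Hdac1 mRNA. The long noncoding RNA Kcnq1ot1, antisense to Kcnq1 and known from imprinting, met the naming rule and stayed under 0.544 FPKM in every mouse library, too low to be tested.

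**Figure D4:**
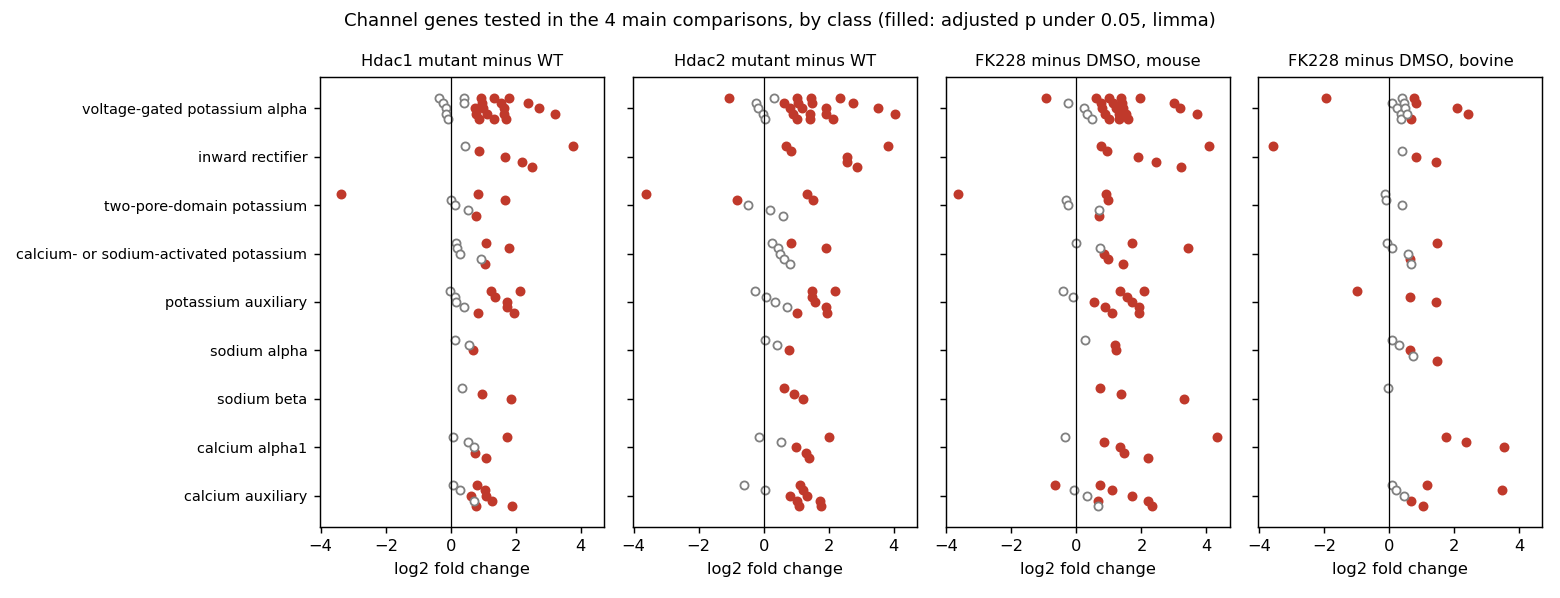
Each point is a tested channel gene, placed by its log2 fold change on the horizontal axis and by class on the vertical axis, with a panel for each of the 4 main comparisons; filled points have a limma adjusted p under 0.05. Most filled points lie right of 0 in mouse, and the lowest is Kcnk6, at -3.38, -3.61 and -3.63 in the tandem-pore class (labelled two-pore-domain).

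Tandem-pore channels, which carry the leak current at rest, held the pair of channel genes with the highest FPKM in the late 2-cell controls, and these moved in opposite directions. Of 14 members 7 were tested, and 3, 2 and 3 rose and 1, 2 and 1 fell with mutant Hdac1, mutant Hdac2 and FK228. The mutant Hdac2 counts lay near the shares of all tested genes, 30.8% higher and 22.2% lower. Kcnk6, a weakly inward-rectifying leak channel, lies at chr7:29221926-29232515. It stood at 3.25 and 5.01 FPKM with mutant and 54.1 and 49.0 FPKM with WT Hdac1 mRNA, at 4.89 and 3.71 FPKM with mutant and 51.1 and 78.4 FPKM with WT Hdac2 mRNA, and at 2.28 and 3.39 FPKM in FK228 and 42.0 and 50.3 FPKM in DMSO. No mutant or FK228 library came near a control, and the water embryos, at 51.4 and 42.1 FPKM, lay with the controls. Kcnk6 fell by 3.38 ± 0.23, 3.61 ± 0.23 and 3.63 ± 0.23 on the log2 scale (SE; limma adjusted p = 2.24e-08, 9.89e-09 and 5.69e-09). Kcnk5, an acid-sensitive leak channel of epithelia and known for regulating cell volume, lies at chr14:20140057-20181809. It stood at 64.6 and 69.0 FPKM with mutant and 18.5 and 22.5 FPKM with WT Hdac1 mRNA, at 94.2 and 97.4 FPKM with mutant and 26.7 and 40.1 FPKM with WT Hdac2 mRNA, and at 80.7 and 80.7 FPKM in FK228 and 39.9 and 44.6 FPKM in DMSO. Kcnk5 rose in all 3, with log2 fold changes of 1.66, 1.52 and 0.92 (limma adjusted p = 1.5e-05, 3.35e-05 and 0.00238).

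Kcnk18, a calcium-regulated leak channel of sensory neurons, was not called with mutant Hdac1 mRNA at 7.76 and 6.63 FPKM, against 7.50 and 6.93 FPKM with WT Hdac1 mRNA. It rose in FK228 to 8.13 and 8.43 FPKM, against 4.12 and 5.30 FPKM in DMSO (log2 fold change 0.71, limma adjusted p = 0.00234). Whether these effects differed was not tested. Kcnk2, a mechanosensitive leak channel, was lower with mutant Hdac2 mRNA at 0.423 and 0.834 FPKM, against 1.07 and 2.99 FPKM with WT Hdac2 mRNA, a call lost with a pseudocount of 0.1 (limma adjusted p = 0.125), with only these 2 groups in the fit (0.153) and without 1 mutant or 1 WT library (0.175 and 0.395).

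Calcium- and sodium-activated potassium channels, which couple calcium to the membrane potential, had 8 members and 7 tested, of which 3, 2 and 5 rose with mutant Hdac1, mutant Hdac2 and FK228. The mutant Hdac2 count lay near the 30.8% of all tested genes called higher. Kcnn3, a small-conductance channel at chr3:89520164-89675132, stood at 2.55 and 2.37 FPKM with mutant Hdac1 mRNA and was listed at 0 in both libraries with WT Hdac1 mRNA. It stood at 2.34 and 3.82 FPKM with mutant Hdac2 mRNA, against 0.145 FPKM and a value listed at 0 with WT Hdac2 mRNA. In FK228 it reached 9.42 and 12.6 FPKM, against 0.132 and 0.0713 FPKM in DMSO, a log2 fold change of 3.43 ± 0.21 (SE; limma adjusted p = 3.87e-09). All 3 comparisons called it (limma adjusted p = 3.6e-06 with mutant Hdac1 and 1.65e-06 with mutant Hdac2). Kcnma1, the large-conductance channel, was called in none of the 3 and stayed under 0.978 FPKM in these 12 libraries.

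Auxiliary subunits of potassium channels had 16 members and 11 tested, of which 7, 7 and 9 rose with mutant Hdac1, mutant Hdac2 and FK228 and 0 fell. Kcnab3, a cytosolic beta subunit, stood at 2.29 and 2.38 FPKM with mutant Hdac1 mRNA, 1.81 and 2.29 FPKM with mutant Hdac2 mRNA and 4.10 and 4.38 FPKM in FK228. It was listed at 0 in both libraries with WT Hdac1 mRNA and in 1 with WT Hdac2 mRNA, and did not pass 0.246 FPKM in a control. Kcnmb4, the neuronal beta subunit of the large-conductance channel, stood at 4.26 and 5.69 FPKM with mutant Hdac1 mRNA, against a value listed at 0 and 0.859 FPKM with WT Hdac1 mRNA (limma adjusted p = 3.9e-05). Kcne3, which accompanies Kcnq1 in epithelia, stood at 2.58 and 3.35 FPKM with mutant Hdac1 mRNA, against a value listed at 0 and 0.0641 FPKM with WT Hdac1 mRNA (limma adjusted p = 5.79e-04). Kcne1l, of the same family, stood at 3.24 and 4.64 FPKM with mutant Hdac2 mRNA, against 0.118 FPKM and a value listed at 0 with WT Hdac2 mRNA (limma adjusted p = 1.39e-05). Exons of Kcnab3, Kcnmb4 and Kcne3 overlap genes on the other strand, and their values may include reads of these. Of 5 noncoding or antisense members only Kcnmb4os2 was tested, and it was called higher in all 3. Its exons overlap those of Kcnmb4 on the other strand, so that reads of the pair may not be told apart.

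Sodium channel genes stayed low. Of 9 pore subunits 3 were tested, and 1, 1 and 2 rose with mutant Hdac1, mutant Hdac2 and FK228. With either mutant this lay near the 30.5% and 30.8% of all tested genes called higher. Of 4 beta subunits, which anchor the pore and adjust its gating, 3 were tested, and 2, 3 and 3 rose. Under quantile normalization the median of the 3 tested pore subunits was -0.25 with mutant Hdac2, against 0.41 without it, and its direction is not settled there.

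Calcium channels contributed 10 pore subunits, of which 6 were tested and 3, 4 and 5 rose with mutant Hdac1, mutant Hdac2 and FK228. Cacna1h, the T-type channel known from mouse eggs (chr17:25374285-25433783), was present in every library. It stood at 21.99 and 29.9 FPKM with mutant and 14.6 and 9.12 FPKM with WT Hdac1 mRNA, at 53.0 and 55.6 FPKM with mutant and 27.0 and 17.0 FPKM with WT Hdac2 mRNA, and at 48.6 and 62.7 FPKM in FK228 and 9.95 and 12.4 FPKM in DMSO. The groups did not overlap, and Cacna1h rose with log2 fold changes of 1.09, 1.30 and 2.21 (limma adjusted p = 0.00233, 5.21e-04 and 2.55e-06); its exons overlap Tpsg1 on the other strand. With only the 2 groups in the fit, the mutant Hdac1 call was lost (adjusted p = 0.0769). Cacna1g, another T-type channel at chr11:94408391-94474198, stood at 16.3 and 23.2 FPKM in FK228, against 0.0136 and 0.0407 FPKM in DMSO (log2 fold change 4.32 ± 0.54, SE, limma adjusted p = 4.83e-06). Its libraries with mutant Hdac1 mRNA differed widely, at 0.679 and 6.51 FPKM, against 0.0593 and 0.0799 FPKM with WT Hdac1 mRNA (log2 fold change 1.73, limma adjusted p = 0.0131).

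Auxiliary calcium channel subunits, which bring the pore to the membrane, had 16 members and 10 tested; 7, 8 and 6 rose and 0, 0 and 1 fell. Cacng7 and Cacng8 belong to a gamma subfamily known for tethering glutamate receptors. Cacng7 rose with FK228 to 20.6 and 23.9 FPKM, against 6.32 and 5.78 FPKM in DMSO (log2 fold change 1.72, limma adjusted p = 6.84e-07). Cacng8 rose with mutant Hdac1 mRNA to 3.66 and 7.78 FPKM, against 0.914 and 0.554 FPKM with WT Hdac1 mRNA (log2 fold change 1.89, limma adjusted p = 7.14e-05). Cacna2d2, an alpha2delta subunit, rose with FK228 to 6.80 and 11.8 FPKM, against 0.459 and 1.71 FPKM in DMSO (log2 fold change 2.33, limma adjusted p = 4.7e-04). Cacnb3, a beta subunit of neurons at chr15:98630840-98644529, rose with mutant Hdac1 mRNA to 17.6 and 24.3 FPKM, against 8.38 and 10.03 FPKM with WT Hdac1 mRNA. In FK228 it was lower, at 19.7 and 18.7 FPKM against 31.2 and 30.9 FPKM in DMSO (log2 fold change -0.67, limma adjusted p = 0.0212). That last call was lost under median-ratio scaling (adjusted p = 0.0523), under quantile normalization (0.312) and without any single library of the 2 groups (0.0576 to 0.088). Cacnb3 differed among the controls themselves, and the opposite signs were not tested against each other.

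Genes already present in controls moved both ways. With 1 FPKM or more in both control libraries, 17 channel genes were expressed with WT Hdac1 mRNA, and 8 of them rose and 1 fell with the mutant, beside 19.4% and 35.4% of all genes so expressed. Of 28 expressed with WT Hdac2 mRNA, 12 rose and 3 fell, beside 20.4% and 34.4%. Of 26 expressed in DMSO, 17 rose and 3 fell, beside 21.4% and 39.5%. The genes that fell were Kcnk6 in all 3, Kcna7 with mutant Hdac2 and FK228, Kcnk2 with mutant Hdac2 and Cacnb3 with FK228.

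At the early 2-cell stage no channel gene passed the test between mutant and WT Hdac1 mRNA. With mutant Hdac1 mRNA 26 and 30 channel genes reached 1 FPKM, against 25 and 26 with WT Hdac1 mRNA. By limma 0 of 78 rose and 0 fell, beside 0.231% and 0.329% of all tested genes called. At an unadjusted p under 0.05 Kcna1, Kcnj2 and Kcnk5 were higher and Kcnq1 was lower. These are 4 of 78 genes (5.13%), near the 1057 of 17336 (6.1%) of all tested genes. A pseudocount of 0.1 called 3 higher, a count given without the share of all genes. Kcnj2 stood at 0.825 and 0.891 FPKM with mutant and 0.253 and 0.147 FPKM with WT Hdac1 mRNA at 24 h (log2 fold change 0.63, adjusted p = 0.221). Kcnk5 stood at 5.10 and 8.33 FPKM with mutant and 3.40 and 2.85 FPKM with WT Hdac1 mRNA (log2 fold change 0.88, adjusted p = 0.124). Of the 49 genes higher at the late stage, 33 (67.3%) had an early fold change above 0, beside 61.9% of all 5281 genes higher at the late stage.

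The difference between the late and the early effect of mutant Hdac1 was tested directly as an interaction in limma. It was positive for 36 channel genes and negative for 1, beside 21.2% and 15.2% of all tested genes. Quantile normalization gave 17 and 3, beside 16.8% and 17.5% of all tested genes. Leaving out each library in turn gave 24 to 33 in all, the fewest without early WT replicate 1. Kcnj10 had a difference of 3.37 ± 0.33 (SE; adjusted p = 3.75e-06), Kcnh2 of 3.05 ± 0.62 (0.00122), Kcng1 of 2.37 ± 0.41 (3.74e-04) and Kcnmb4 of 2.25 ± 0.45 (0.00103) on the log2 scale. Kcnk6 had the negative difference, -3.57 ± 0.33 (2.72e-06). Kcnj10 at 24 h stood at 0.379 and 0.292 FPKM with mutant and 0.0254 and 0.0247 FPKM with WT Hdac1 mRNA, so that both early groups lay under the 13.0 FPKM of the lower late mutant library.

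In embryos with WT Hdac1 mRNA more channel genes fell than rose between 24 h and 36 h. Relative to the early stage 8 of 78 rose and 19 fell, beside 28.8% and 28.1% of all tested genes. Of the 22 that were at 1 FPKM or more in both early libraries, 2 rose and 18 fell, beside 29.3% and 45.5% of all genes so expressed. Kcnk6 rose the most, standing at 54.1 and 49.0 FPKM late, against 0.102 and 0.0661 FPKM early (log2 fold change 5.60 ± 0.23, SE, limma adjusted p = 2.69e-11). The leak channel gene Kcnk5 (log2 fold change 2.38) and the beta subunit gene Cacnb1 (1.82) rose as well. Kcnh3, a brain potassium channel, fell to 0.798 and 0.626 FPKM late, against 9.25 and 8.04 FPKM early (log2 fold change -2.49, limma adjusted p = 2.65e-08). Cacnb2 (-2.21), Kcnma1 (-1.31) and Kcnk13 (-1.25) fell too, and for Kcnk13 the late libraries differed widely, at 5.10 and 1.35 FPKM. The late libraries with mutant Hdac1 mRNA held Kcnh3 at 3.14 and 2.36 FPKM, above their WT control, and the water embryos held it at 2.904 and 2.196 FPKM; exons of Kcnh3 overlap Mcrs1 on the other strand. The comparison shares its WT late libraries with the late mutant comparison, and its values are given beside that one only for the genes named.

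Kdm5b mRNA injected after mutant Hdac1 mRNA moved the family little. In the Kdm5b libraries 48 and 47 channel genes reached 1 FPKM, against 60 and 55 in those injected with water after the mutant. The number of all genes at 1 FPKM or more was lower as well, at 13412 and 13635 against 14411 and 14031, also without overlap. By limma 0 rose and 1 fell, beside 0.415% and 0.629% of all tested genes; 11 members (14.1%) had an unadjusted p under 0.05, beside 14.9% of all tested genes. The gene that fell was Kcnj2, at 1.75 and 2.01 FPKM with Kdm5b and 4.88 and 4.03 FPKM with water (log2 fold change -0.92 ± 0.19, SE, limma adjusted p = 0.0357). That call was lost in 3 of the other settings and without any single library of the 2 groups (adjusted p = 0.0531 to 0.28 over these). Kcnk6 stood at 7.80 and 9.67 FPKM with Kdm5b and 4.26 and 5.30 FPKM with water, a log2 fold change of 0.75 that was not called (adjusted p = 0.128), against 51.4 and 42.1 FPKM in water embryos without the mutant. Of the 49 genes higher with mutant Hdac1, 35 (71.4%) had a lower mean with Kdm5b than with water, beside 69.6% of all 5281 such genes. All 49 kept means above those of the water embryos both with Kdm5b and with water after the mutant. These 49 were picked as higher with the mutant, and the same count was not made over all genes. For some the margin was small, as for Cacng7 at a mean of 5.36 FPKM with Kdm5b and 5.09 FPKM in water embryos. Of 54 channel genes silent with water after the mutant 0 were switched on by Kdm5b, beside 0.143% of all silent genes.

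Extra WT deacetylase mRNA also touched a few members. With WT Hdac1 mRNA Cacna1h was higher and Kcnh3 lower than in water embryos, 1 gene each way, beside 0.352% and 1.83% of all tested genes. Cacna1h stood at 14.6 and 9.12 FPKM with WT Hdac1 mRNA and at 27.0 and 17.0 FPKM with WT Hdac2 mRNA, against 4.65 and 5.45 FPKM in water embryos (log2 fold changes 1.06 and 1.89, limma adjusted p = 0.0469 and 3.7e-04). With WT Hdac2 mRNA 8 members rose and 0 fell, beside 6.59% and 2.86% of all tested genes. Among them Kcnk12 and Kcnk13, relatives of the leak channel family, stood at 4.25 and 4.34 FPKM and at 6.09 and 4.79 FPKM with WT Hdac2 mRNA, against 0.888 and 0.318 FPKM and 1.18 and 1.31 FPKM in water embryos. The Cacna1h call with WT Hdac1 mRNA was lost with no filter, under quantile normalization, with a replicate block, with only the 2 groups in the fit and without either water library (adjusted p = 0.0569 to 0.591 over these). With only the 2 groups in the fit, none of the named calls of both comparisons was kept. Both comparisons share the water libraries.

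Between mutant Hdac1 and mutant Hdac2 no channel gene had a different effect by the limma test of the difference, 0 in each direction, beside 0.0404% and 0.0635% of all tested genes. At an unadjusted p under 0.05 there were 13 (16.7%), beside 9.56% of all tested genes. Leak channel Kcnk12 and potassium channel Kcna7 had differences of 1.32 ± 0.38 and 0.84 ± 0.24 on the log2 scale (SE; adjusted p = 0.243 and 0.246). A difference that misses the threshold does not show that the 2 mutants act alike.

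In cattle the largest rises were those of the calcium channel genes CACNA1H and CACNG4. All 3 tested pore subunits rose, as did 4 of 7 tested auxiliary subunits, beside 22.2% of all tested bovine genes. CACNG4, a gamma subunit known for tethering glutamate receptors, stood at 72.2 and 74.1 FPKM in FK228 and 4.98 and 6.50 FPKM in DMSO (log2 fold change 3.47 ± 0.19, SE, limma adjusted p = 2.4e-05). CACNA1H, the T-type channel, stood at 28.2 and 23.0 FPKM in FK228 and 0.999 and 1.62 FPKM in DMSO (3.53 ± 0.23, adjusted p = 3.43e-05). CACNA1G stood at 12.4 and 12.6 FPKM in FK228 and 1.29 and 2.00 FPKM in DMSO (2.36), and CACNA1S, the pore of skeletal muscle, at 6.14 and 7.32 FPKM in FK228 and 1.07 and 1.61 FPKM in DMSO (1.73). In none of these did the groups overlap. These fits have 2 residual degrees of freedom.

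Among bovine potassium channel genes KCNA7 rose to 5.31 and 7.68 FPKM in FK228, against 0.359 and 0.395 FPKM in DMSO (log2 fold change 2.43, limma adjusted p = 1.22e-04). KCNH4 stood at 5.78 and 4.30 FPKM in FK228 and 0.638 and 0.212 FPKM in DMSO (2.09). KCNN1, a small-conductance channel, stood at 10.2 and 9.11 FPKM in FK228 and 3.52 and 2.27 FPKM in DMSO (1.47). The largest fall was that of KCNJ9, the G protein-gated rectifier, at 0.295 and 0.441 FPKM in FK228 and 20.01 and 11.9 FPKM in DMSO (-3.59 ± 0.27, SE, limma adjusted p = 5.16e-05). KCNH3 and KCNMB4 were the other members that fell, at 0.343 and 1.13 FPKM against 6.19 and 4.81 FPKM in DMSO and at 0.462 and 0.822 FPKM against 2.13 and 2.32 FPKM in DMSO. The abundant KCNA5, an atrial channel, stood at 58.8 and 52.3 FPKM in FK228 and 37.9 and 46.0 FPKM in DMSO and was not called (adjusted p = 0.088). The 5 bovine genes that switched on were CACNG1, KCNA7, KCNAB3, KCNH8 and SCN4A; CACNG1, listed at 0 in both DMSO libraries, stood at 1.13 and 1.31 FPKM in FK228.

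Of 128 genes matched between the species, 127 by symbol and Kcne1l to KCNE5, 37 were tested in both. FK228 raised 30 of the 37 (81.1%) in mouse and 17 (45.9%) in cattle. Of these 37, 16 rose in both, which is 94.1% of the 17 higher in cattle and 53.3% of the 30 higher in mouse. Over the 9850 genes of the same symbol tested in both species, 30% were higher in mouse and 20.5% in cattle. Of these genes 1020 rose in both, 50.6% of those higher in cattle and 34.5% of those higher in mouse. The 94.1% thus stands beside 81.1% of channel genes higher in mouse, and the 50.6% beside 30% of all genes. Cacna1g, Cacna1h, Cacna1s, Cacng4, Kcnab3, Kcnh4 and Kcnn1 were among the 16 channel genes that rose in both. Directions differed for 4 genes, which were chosen here after their values were seen. Kcnh3, Kcnj9 and Kcnmb4 rose in mouse (log2 fold changes 0.89, 0.93 and 1.92) and fell in cattle (-1.94, -3.59 and -0.98). Kcna7 was lower with FK228 in mouse (-0.95) and higher in cattle (2.43). Kcnk6, the strongest fall in mouse, stood at 1.26 and 0.301 FPKM in FK228 and 0.591 and 1.11 FPKM in DMSO in cattle and was not called. Kcnj10 rose in cattle too, to 2.69 and 3.21 FPKM, against 1.49 and 0.972 FPKM in DMSO (0.83, limma adjusted p = 0.0149). Stage, culture medium and the tables' normalization differ between species, and the difference itself was not tested.

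**Figure D5:**
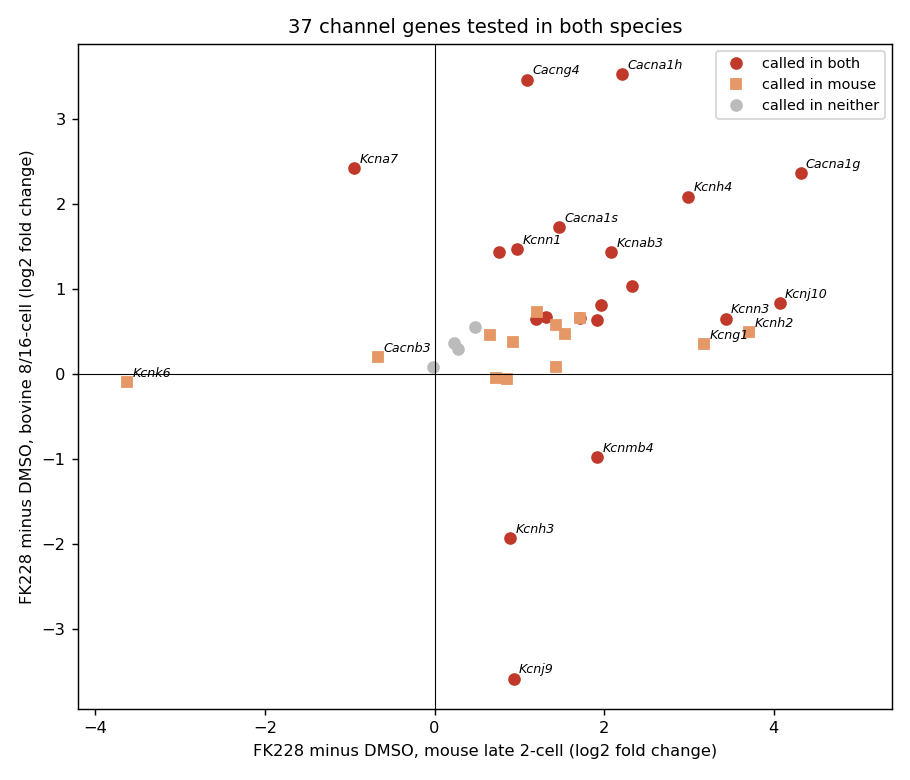
Each of the 37 points is a channel gene tested in both species, with its log2 fold change in FK228 over DMSO in mouse late 2-cell embryos on the horizontal axis and in bovine 8/16-cell embryos on the vertical axis; red circles were called in both species, orange squares in mouse and grey circles in neither. Most points lie in the upper right, Kcna7 lies upper left at -0.95 and 2.43, and Kcnj9, Kcnh3 and Kcnmb4 lie lower right.

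Other genes of ion transport were read from lists that were likewise chosen with earlier results known. Of all tested genes, 30.5%, 30.8% and 31% were called higher with mutant Hdac1, mutant Hdac2 and FK228 in mouse, and 22.2% in cattle. The shares called lower were 21.6%, 22.2% and 26.3% in mouse and 27.4% in cattle. Whether a list differed from these shares was not tested. Of 44 tested genes for other ion channels 19, 21 and 22 rose and 4, 5 and 6 fell with mutant Hdac1, mutant Hdac2 and FK228 in mouse, and 10 rose and 10 fell among 31 in cattle. The pacemaker channel gene Hcn2 stood at 9.32 and 13.9 FPKM with mutant and 0.550 and 0.975 FPKM with WT Hdac1 mRNA (log2 fold change 2.83), and the chloride channel Clcn2 (2.35) and the cation channel Trpc1 (2.16) rose too. Of 18 tested ligand-gated channels 8, 7 and 7 rose and 1, 2 and 3 fell, and in cattle 5 of 13 rose and 0 fell. Their median log2 fold changes of 0.48, 0.17 and 0.32 turned to -0.0029, -0.42 and -0.10 under quantile normalization. The nicotinic receptor subunits Chrna5 (2.33) and Chrna4 (1.71) rose with mutant Hdac1 mRNA.

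REST and its corepressors gave 12 tested genes, among them the injected Hdac1 and Hdac2. In mouse 5, 3 and 3 rose and 3, 4 and 6 fell with mutant Hdac1, mutant Hdac2 and FK228, and in cattle 2 rose and 5 fell. Beside these stand 30.5%, 30.8% and 31% of all tested mouse genes called higher and 21.6%, 22.2% and 26.3% called lower. In cattle the shares of all tested genes were 22.2% and 27.4%. Whether the 12 genes differed from the rest was not tested. The H3 lysine 4 demethylase gene Kdm1a fell with mutant Hdac1 mRNA (log2 fold change -1.55), and Ctdsp2 (1.51), a phosphatase of the REST complex, and the corepressor Sin3b (1.39) rose. Rest itself, named after its values were seen, stood at 27.1 and 30.8 FPKM with mutant and 77.3 and 70.2 FPKM with WT Hdac1 mRNA (-1.32, limma adjusted p = 1.18e-06), at 36.5 and 32.6 FPKM with mutant and 81.0 and 70.9 FPKM with WT Hdac2 mRNA, and at 27.5 and 27.5 FPKM in FK228 and 78.3 and 74.9 FPKM in DMSO. Its part in the channel genes' change was not tested. The median log2 fold change of this list with mutant Hdac2 was -0.23, and 0.16 under quantile normalization.

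Markers of several other cell types moved with the channel genes. Beside the counts below stand 30.5%, 30.8% and 31% of all tested mouse genes called higher with mutant Hdac1, mutant Hdac2 and FK228. The shares called lower were 21.6%, 22.2% and 26.3%. In cattle the shares were 22.2% higher and 27.4% lower. Of 10 tested neuron markers 7, 8 and 7 rose with mutant Hdac1, mutant Hdac2 and FK228, and 0, 1 and 0 fell. Their summed level was 55.0 and 52.8 FPKM with mutant and 13.5 and 15.7 FPKM with WT Hdac1 mRNA, 80.1 and 92.5 FPKM with mutant and 25.9 and 25.4 FPKM with WT Hdac2 mRNA, and 105.4 and 102.8 FPKM in FK228 and 33.7 and 32.2 FPKM in DMSO. The defining gene Dcx was listed at 0 in all 6 mutant and FK228 libraries of these comparisons. Of 7 tested blood markers 6 rose in each comparison. Their sum was 126.8 and 116.4 FPKM with mutant and 7.53 and 4.54 FPKM with WT Hdac1 mRNA, 180.1 and 181.4 FPKM with mutant and 9.21 and 6.33 FPKM with WT Hdac2 mRNA, and 215.8 and 199.1 FPKM in FK228 and 10.98 and 16.6 FPKM in DMSO. The beta globin genes Hbb-bs and Hbb-bt were listed at 0 in 5 of those 6 mutant and FK228 libraries, while Hba-a1 and Hba-a2 were high. Of 7 tested cumulus and granulosa markers 4, 4 and 3 rose, and their sum was 11.5 and 15.9 FPKM with mutant and 1.74 and 2.96 FPKM with WT Hdac1 mRNA. Of 10 oocyte markers 0, 0 and 1 rose and 1 fell in each comparison, and their sums overlapped, at 438.9 and 493.6 FPKM with mutant and 510.7 and 442.3 FPKM with WT Hdac1 mRNA. Of 2 tested sperm markers 1, 0 and 0 rose. Their list summed to 1.464 and 6.345 FPKM with mutant and 0.546 and 0.339 FPKM with WT Hdac1 mRNA. The sum was 1.612 and 1.845 FPKM with mutant and 1.018 and 0.905 FPKM with WT Hdac2 mRNA. In FK228 it was 1.43 and 3.44 FPKM, against 1.71 and 1.97 FPKM in DMSO, where the groups overlapped. Markers of oocytes and those listed for the late 2-cell stage were at 1 FPKM or more in every mouse library. Of the 8 listed for the late 2-cell stage 6, 7 and 7 rose. Between 24 h and 36 h with WT Hdac1 mRNA 2 of these 8 rose and 4 fell, so the list did not mark the late stage here. In cattle 4 of 11 tested neuron markers rose and 2 fell, with a sum of 180.0 and 169.1 FPKM in FK228 and 126.8 and 134.9 FPKM in DMSO. The part of these other cell type markers in the channel result was not tested.

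The 58 mouse channel genes that were not tested reached 1 FPKM in at most 1 of the 22 libraries, and the 85 untested bovine genes in at most 1 of 4. All 136 mouse and all 131 bovine members had a value above 0 in at least 1 library. In mouse between 5 and 68 members were listed at 0 in a library, the most in the controls with WT Hdac1 mRNA. Exons of 3 members overlap another gene on the same strand and those of 41 overlap a gene on the other strand, by GENCODE release M21.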

How the data were processed

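The authors deposited 1 table of FPKM values a species, in which the fragments of a gene are divided by its length and by the total of its library. PolyA RNA was drawn out with oligo(dT) beads after a Picopure extraction, per the labels' protocols, which describe no strand marking. Per the submitters' processing notes reads went through HISAT2 and other tools (DESeq2, Cufflinks, featureCounts and Trimmomatic), on ARS-UCD1.2 for cattle and GRCm38 for mouse, with no version or role given. FPKM divide by each library's total, so abundant genes shift all others.

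The 22 mouse libraries in 11 groups and the 4 bovine libraries in 2 groups were grouped by the labels, and 0 columns were left without a sample. Absolute depth is unknown. Relative depth was estimated roughly from the most frequent ratio between low genes of 2 libraries (90% of mouse and 100% of bovine pairs within 0.06 on the log2 scale). Values under 1e-06 were taken as 0, and a 0 can be a failed estimate. The 17336 mouse and 12590 bovine genes with 1 FPKM or more in 2 or more libraries were tested as log2(FPKM + 1), with limma 3.58.1 in R 4.3.3, a coefficient per group over all libraries of a species (11 and 2 residual degrees of freedom), two-sided p-values and Benjamini-Hochberg adjustment over all tested genes. The procedure was tested on simulated data. In all, 9 pairs of groups were compared, and 2 differences between such comparisons were tested. An exact permutation test of 2 libraries against 2 cannot go below p = 0.333 and was not used. Alternatives were other scalings, filters, a pseudocount of 0.1, only the groups compared, a replicate block, other thresholds for switching on and leaving out each library. Python 3.11.15, pandas 2.3.3 and matplotlib 3.10.9 were used for the rest.

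All 136 mouse members were found by symbol in GENCODE release M21 (GRCm38), which gave their coordinates; promoters are those of RefSeq. Bovine coordinates were not used. Members, lists and tests were chosen with earlier results of these data known. Named genes were, per main comparison, up to 10 called higher and 6 called lower by size of change, with groups that did not overlap and at least 2 FPKM on average in whichever group was higher, up to 4 each way elsewhere, members at 5 FPKM or more in water or bovine DMSO embryos, those switched on in all 3 mouse perturbations, Cacna1h, Kcnq1ot1 and up to 3 called genes of each other list. Some genes that meet the rule are not reported here. Other genes are named as members of a count.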

Additional observations from a re-analysis of the deposited data

Results flagged for a closer look

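A total of 37 channel genes had an effect of mutant Hdac1 that differed between the late and the early 2-cell stage by the limma interaction test, 36 with a higher and 1 with a lower late effect. The number was 20 under quantile normalization and 24 to 33 when each library was left out in turn. Of all tested genes 21.2% had a higher and 15.2% a lower late effect, and 16.8% and 17.5% under quantile normalization. Among the named genes the difference of the effects on the log2 scale was 3.37 for Kcnj10 (adjusted p = 3.75e-06), 3.05 for Kcnh2 (0.00122), 2.37 for Kcng1 (3.74e-04), 2.25 for Kcnmb4 (0.00103) and -3.57 for Kcnk6 (2.72e-06). Over all tested genes the median difference was 0.18, and over the tested channel genes 0.84. Groups of 2 libraries do not allow a check for a library that stands apart within its group.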

How the results depend on the processing

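Counts are of channel genes called, higher and lower. Where no share of all genes stands beside a count, it shows only how the count depends on the setting. Such a count does not compare the channel genes with the rest. With a minimum of 5 FPKM 27 rose with mutant Hdac1, 26 rose and 1 fell with mutant Hdac2, 28 rose with FK228 in mouse, 12 rose and 1 fell in cattle, and 10 fell from early to late. With only the groups compared 32 rose with mutant Hdac1, and 0 fell with Kdm5b, 0 and 0 were called between WT Hdac1 and water and 0 rose with WT Hdac2 over water. Quantile normalization gave 28 and 6 with mutant Hdac1, 10 lower with mutant Hdac2, 5 lower with FK228 in mouse, 0 with Kdm5b, 0 and 0 for WT Hdac1 over water, and 20 with a stage-dependent effect. Of all tested genes it called 24.2% higher and 26.2% lower with mutant Hdac1. It called 26.1% lower with mutant Hdac2 and 27.9% lower with FK228 in mouse. With no filter 6 fell in cattle, beside 14.1% of all bovine genes with a value. Also with no filter 5 rose from early to late and 0 rose for WT Hdac1 over water, beside 4883 and 54 of all 27945 genes. A pseudocount of 0.1 gave 3 higher at the early stage, 0 lower with Kdm5b and 2 lower for WT Hdac1 over water. With a replicate block 0 rose for WT Hdac1 over water; deviations of libraries that share a number correlated with a median r of 0.023 (-0.0893 to 0.175), so the numbers do not pair the libraries, and the block gave 49 and 1, 52 and 3, and 60 and 3 for mutant Hdac1, mutant Hdac2 and FK228 in mouse and 23 and 3 in cattle. Genes switched on from a value listed at 0 numbered 3 of 49 with mutant Hdac1 and 2 of 27 with mutant Hdac2. They numbered 3 of 29 with FK228 in mouse and 1 of 11 in cattle. These shares were 6.12%, 7.41%, 10.3% and 9.09%, beside 4.16%, 2.43%, 2.79% and 1.05% of all genes so listed. From under 1 to 2 FPKM or more 14 of 100 (14%) switched on with FK228 in mouse, beside 8.6% of all such genes.

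Leaving out each library in turn gave 43 to 45 higher and 1 to 2 lower with mutant Hdac1, 43 to 49 and 2 to 3 with mutant Hdac2, 48 to 54 and 2 with FK228 in mouse, 14 to 20 and 3 in cattle, 0 at the early stage, 5 to 8 and 16 from early to late, 0 with Kdm5b, 0 to 3 and 0 to 2 for WT Hdac1 over water, 4 to 8 and 0 for WT Hdac2 over water, 24 to 33 with a stage-dependent effect and 0 to 1 that differed between the mutants. It gave 15 to 22, 17 to 26, 27 to 31 and 5 to 7 genes switched on with mutant Hdac1, mutant Hdac2, FK228 in mouse and in cattle, 0 to 3 at the early stage and 0 with Kdm5b. In the first 4 comparisons the shares of silent channel genes were 16.1% to 23.7%, 18.5% to 29.5%, 29.8% to 34.4% and 6.67% to 9.33%. Those of all silent genes were 11.5% to 15.2%, 12.2% to 15.2%, 11.9% to 14.4% and 4.56% to 6.24%. Among genes that were not called, the sign of the log2 fold change turned: -0.356 to 0.0833 for KCNK1 with FK228 in cattle, -0.31 to 0.031 (mutant Hdac1) and -0.277 to 0.214 (mutant Hdac2) for Kcnh1, and -0.106 to 0.0928 (mutant Hdac1) and -0.0169 to 0.427 (mutant Hdac2) for Kcnk18. The cause of these moves was not tested, beyond fewer genes tested under the stricter filter and fewer libraries in a fit. Under the settings that keep all libraries, 691 values of named genes kept their call and direction, 4 passed the threshold only under the alternative and 23 no longer passed it. Depth is unknown, so genes near 0 FPKM cannot be told from absent ones.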

Other observations

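Pumps and cotransporters that move the same ions changed as well. Of 22 tested genes of that list 10, 13 and 12 rose and 2, 2 and 4 fell with mutant Hdac1, mutant Hdac2 and FK228 in mouse, and 6 of 17 rose and 4 fell in cattle. Of all tested genes 30.5%, 30.8% and 31% were called higher and 21.6%, 22.2% and 26.3% lower in mouse. In cattle these shares were 22.2% and 27.4%. Members of the cation-chloride cotransporter family moved apart. Slc12a4, which carries potassium and chloride out of the cell, stood at 6.97 and 11.1 FPKM with mutant and 0.263 and 0.658 FPKM with WT Hdac1 mRNA (log2 fold change 2.76, limma adjusted p = 4.34e-06), and Slc12a7, of the same kind, rose by 2.30 (3.05e-07). Slc12a2, which carries sodium, potassium and chloride into the cell and was picked after its values were seen, stood at 15.8 and 17.0 FPKM with mutant and 80.5 and 65.3 FPKM with WT Hdac1 mRNA (-2.08, 7.91e-08). It fell likewise with mutant Hdac2 mRNA, to 19.6 and 16.0 FPKM against 74.5 and 83.9 FPKM with WT Hdac2 mRNA, and in FK228, to 15.4 and 13.9 FPKM against 91.0 and 85.0 FPKM in DMSO. Atp1b1, the beta subunit of the sodium pump, rose to 36.2 and 37.2 FPKM with mutant Hdac1 mRNA, against 9.29 and 6.71 FPKM with WT Hdac1 mRNA (2.08, 7.31e-08).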
